A study of Mus musculus with 30 samples.

Results

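The genes described here are 36 genes of the contractile apparatus and calcium handling of skeletal muscle, in which slow and fast fibres use different members of the same families. They were taken by gene symbol from a list that was drawn up with earlier results of these data known, and all 36 were found among the 55487 genes of the gastrocnemius count table. Of the 36, 13 are typical of slow fibres, 16 of fast fibres and 7 of neither side. The gastrocnemius libraries came from male C57BL/6J mice in 3 groups of 5, fed a chow diet (CD), a western diet (WD) or the WD with cyclo(His-Pro) (CHP), the cyclic dipeptide made of histidine and proline. All mice were kept at thermoneutrality (30 to 32 °C) from 6 weeks of age, which the CD controls shared, and the diets began at Week 7. CHP was gavaged 3 times each week at 20 mg/kg, and water was gavaged in its place in CD and WD mice. Muscles were collected at Week 24, once food had been withheld for 3 h. The questions were which of these genes differed in WD vs. CD, which differed in WD + CHP vs. WD, and whether slow isoforms moved against their fast counterparts.

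Skeletal muscle fibres are classed by the myosin heavy chain they carry. Type I fibres are slow, oxidative and resistant to fatigue, whereas types IIA, IIX and IIB are increasingly fast, and the mouse gastrocnemius is known as a mainly fast muscle rich in type IIB fibres. The myosin light chains, the 3 troponin subunits, the calcium pumps of the sarcoplasmic reticulum (SERCA) and the calsequestrins that store calcium there also exist in slow and fast forms, which are encoded by separate genes. In a whole muscle, a change in the number of fibres of a type and a change in RNA per fibre cannot be told apart.

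RNA was enriched for polyA and sequenced, and the values are reads counted per gene. Each gastrocnemius library held 50319024 to 53282969 counts, of which the 36 genes took 25.8% to 30.3%. By group the share was 28.0% to 30.3% in CD, 25.8% to 27.8% in WD and 26.0% to 28.4% in WD + CHP. Mitochondrial genes took 7.74% to 10.2% in CD, 9.09% to 10.5% in WD and 9.49% to 11.5% in WD + CHP. Counts are given as CPM, the reads of a gene relative to all reads of its library, with library sizes scaled by the TMM method of edgeR. Within groups, pairs of libraries had chi-square values per gene between 9.61 and 74.6, far more than sampling noise, and none was counted as a duplicate. The paper's methods name frozen gastrocnemius, whereas the sample labels give frozen liver as the starting material. The fast myosin *Myh4* was at 68089 to 113259 CPM in these libraries and had no count in any of the kidney libraries deposited beside them. The counting tool and its strand setting are not given in the sources used here. Reads of the 14 members that overlap another gene on the opposite strand, and of close paralogs such as the myosin heavy chains, may therefore be shared.

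The most abundant members were those of fast fibres and those used by all fibres. Per kilobase of exon and averaged over the 15 libraries, skeletal alpha-actin *Acta1* was the most abundant member at 24969.9 CPM per kb. It was followed by the IIB myosin *Myh4* at 14789.8, the fast calcium pump *Atp2a1* (SERCA1) at 14392 and fast troponin T *Tnnt3* at 10782 CPM per kb. The highest slow member on this scale was *Mybpc1*, slow myosin-binding protein C, at 356, ahead of the slow pump *Atp2a2* (SERCA2) at 63.2 and the type I myosin *Myh7* at 53.5 CPM per kb. The lowest members were sarcolipin (*Sln*) at 0.657 and phospholamban (*Pln*) at 0.808 CPM per kb, both small inhibitors of SERCA pumps.

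Shares of the summed CPM per kb within a family are given as a description, without a test. Among the 4 adult myosin heavy chains, *Myh4* took 93.7% ± 1.67 (SD, n = 5) of the sum in CD, 90.7% ± 1.69 of it in WD and 90.6% ± 1.69 with CHP. The IIX gene *Myh1* took 3.71% ± 0.700, 5.19% ± 0.619 and 5.35% ± 0.961 in the same order. The IIA gene *Myh2* took 2.37% ± 0.892, 3.72% ± 1.03 and 3.70% ± 0.681. Type I *Myh7* stayed below 1% in every library, at 0.260% ± 0.153, 0.429% ± 0.294 and 0.329% ± 0.10. The slow partner was similarly minor in the other families summed, with 0.160% ± 0.0836 of the troponin I sum in CD for *Tnni1* and 1.43% ± 0.528 of the essential light chain sum in CD for *Myl3*. In WD these means were 0.360% ± 0.233 and 2.49% ± 1.08, and *Myl2* took 1.62% ± 0.742 of the regulatory light chain sum in WD vs. 0.763% ± 0.337 in CD. The slow pump *Atp2a2* took 0.547% ± 0.246 of the SERCA sum in WD vs. 0.330% ± 0.156 in CD. The myosin-binding protein C pair was not summed and was less unequal. In CD *Mybpc1* was at 272 ± 40.3 and *Mybpc2* at 2529 ± 270 CPM per kb.

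**Figure D1:**
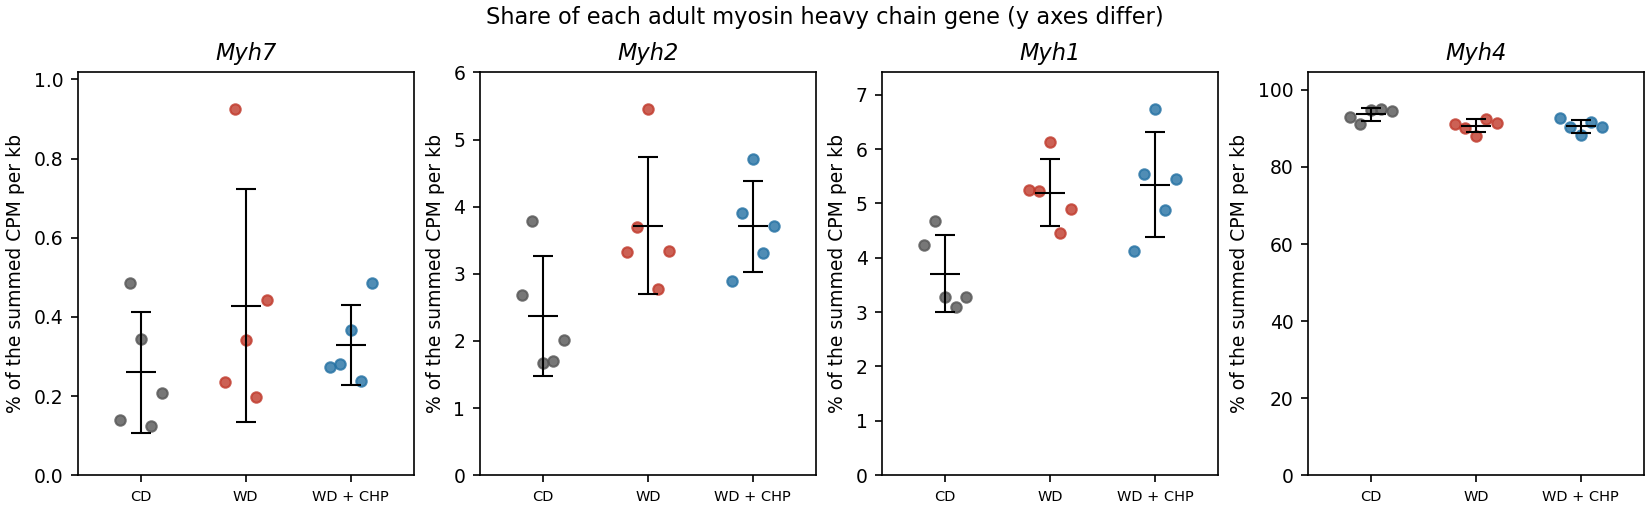
Share of each adult myosin heavy chain gene in the summed CPM per kilobase of the 4 genes, in percent, by group. Points are libraries, and black marks are the mean and SD (n = 5). The mean share of *Myh4* is 93.7% in CD and 90.7% in WD, and the y axes differ between panels.

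In WD vs. CD, 6 of the 36 members passed edgeR's quasi-likelihood test with Benjamini-Hochberg adjustment over 15419 genes at 0.05, which is 16.7% of the members beside 8.63% of all genes tested. Those that rose were *Csrp3*, *Ankrd2*, *Mb* and *Mybpc1*, and those that fell were *Acta1* and *Myl1*. Only *Mybpc1* of the slow side and *Myl1* of the fast side were among them, which are 7.69% and 6.25% of those sides, and the other 4 belong to the 7 genes of neither side. Of all genes tested, 4.67% passed with a higher level in WD and 3.96% passed with a lower one.

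*Csrp3* encodes muscle LIM protein of the Z-disc, which is known to respond to mechanical load (ENSMUSG00000030470, chr7:48830398-48848033, minus strand, GRCm38). Its level was 25.6, 56.2, 18.9, 24.4 and 23.8 CPM in the CD libraries, in the order of their replicate numbers, and 78.9, 70.9, 126, 62.3 and 93.3 CPM in the WD libraries. Every WD library lay above every CD library, and CD replicate 2 was well above the other CD libraries (log2 fold change 1.53, SE 0.297, adjusted p = 0.00413).

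*Ankrd2*, an ankyrin repeat protein of the sarcomere and nucleus that stretch is known to induce (ENSMUSG00000025172, chr19:42036000-42045110, plus strand), moved alike. The CD libraries had 64.2, 105, 52.7, 53.1 and 60.9 CPM and the WD libraries 110.1, 128, 172, 116 and 137 CPM. The groups did not overlap, and CD replicate 2 was again the highest of its group (log2 fold change 0.98, SE 0.199, adjusted p = 0.00548).

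*Mb* encodes myoglobin, the oxygen store of oxidative fibres (ENSMUSG00000018893, chr15:77015487-77050670, minus strand). It was at 1376, 1609.7, 812, 919 and 899 CPM in CD and 1621, 1691, 2078, 1635 and 2092 CPM in WD. All WD libraries exceeded all CD libraries, although CD replicates 1 and 2 came close to the lowest WD libraries (log2 fold change 0.70, SE 0.171, adjusted p = 0.0168).

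*Mybpc1*, which binds the myosin filament and is the slow form of its family (ENSMUSG00000020061, chr10:88518279-88605152, minus strand), was at 1194, 1553, 1181, 1132 and 1106 CPM in CD and 1955, 1923, 2251, 1490.3 and 1462 CPM in WD. The groups overlapped through CD replicate 2, which lay above WD replicates 4 and 5 (log2 fold change 0.56, SE 0.12, adjusted p = 0.00782). These 4 rises held in every one of the 10 fits that left out a library and in all 10 other alternatives.

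The 2 falls were small. *Acta1* (ENSMUSG00000031972, chr8:123891769-123894751, minus strand) was at 39399.6, 39335, 40759, 43802 and 41282 CPM in CD and 34988, 35664, 33798, 36895 and 33802 CPM in WD, with no overlap (log2 fold change -0.22, SE 0.0601, adjusted p = 0.0288). *Myl1*, the fast essential light chain (ENSMUSG00000061816, chr1:66924295-66945404, minus strand), was at 7016, 6037, 6765, 7067 and 5544 CPM in CD and 5051, 4739, 4604, 5796 and 6196 CPM in WD, and these groups overlapped (log2 fold change -0.30, SE 0.0891, adjusted p = 0.0478). Both calls depended on single libraries, since *Acta1* passed in 5 and *Myl1* in 4 of the 10 fits that left out a library. *Acta1* failed when any of CD replicates 3, 4 and 5 and WD replicates 1 and 3 was removed (highest adjusted p = 0.0717), and *Myl1* when any of CD replicates 1, 3 and 4 and WD replicates 1, 2 and 3 was (highest adjusted p = 0.115), all in edgeR. Other settings ended these calls too. *Myl1* did not pass with the total count (adjusted p = 0.0992), with no filter on low counts (0.0569), with only the 2 groups compared (0.0990) or with the replicate number as a block (0.0799). *Acta1* did not pass with only the 2 groups compared (adjusted p = 0.0759 in edgeR) or with a correction for length and GC content.

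**Figure D2:**
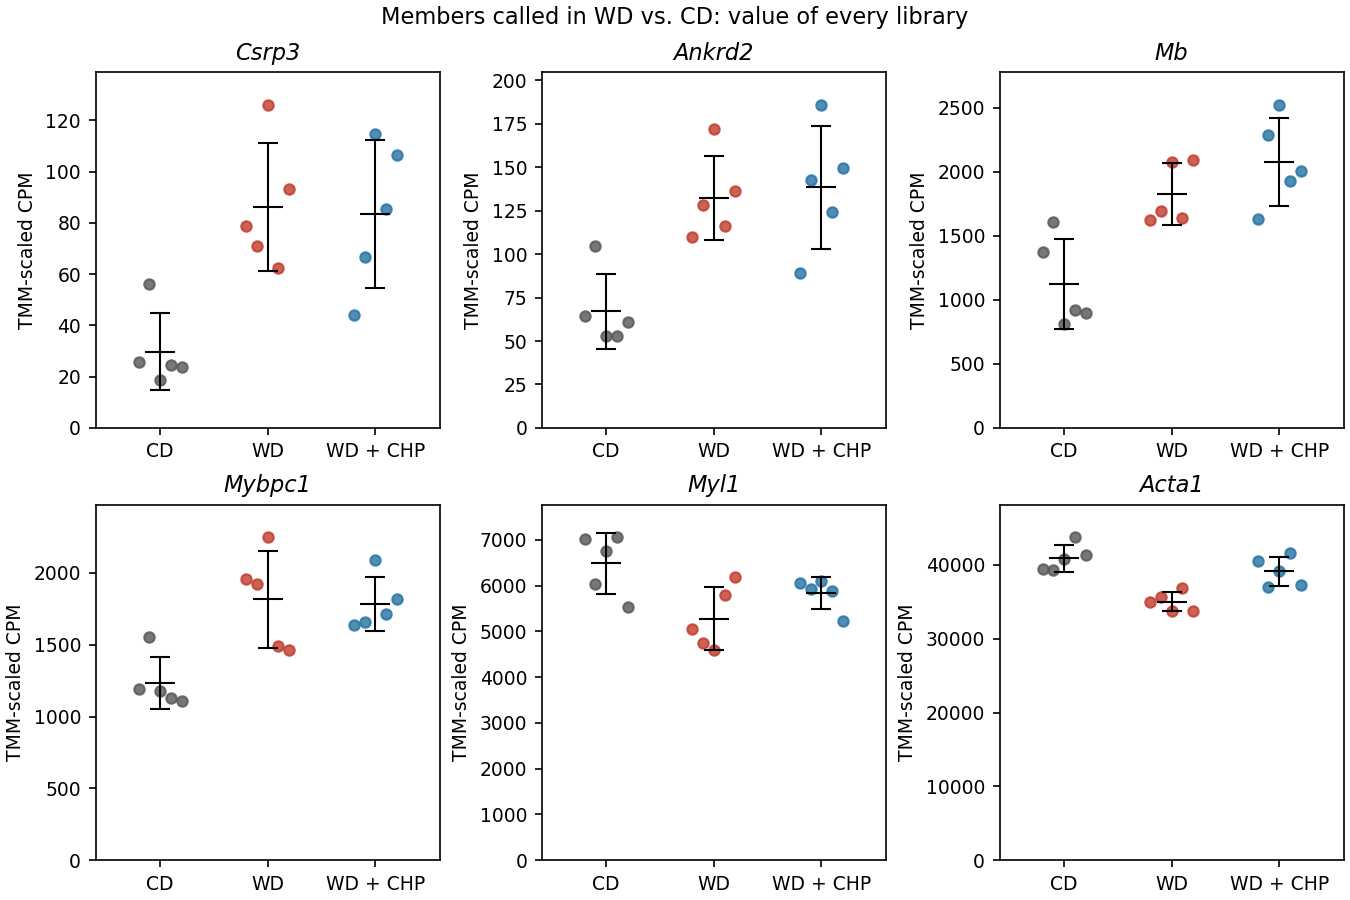
TMM-scaled CPM of the 6 members that passed the test in WD vs. CD, by group. Points are libraries, black marks are the mean and SD (n = 5), and y axes start at 0. *Csrp3*, *Ankrd2* and *Mb* are higher in all 5 WD libraries than in all 5 CD libraries, and *Acta1* is lower in all 5.

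RefSeq promoter sequences (GRCm38.p6) were matched for 29 of the 36 members. Those of the called members with a RefSeq start within 30 bases of the GENCODE start are printed, to show what precedes the genes that moved in WD vs. CD. *Csrp3* has a second RefSeq start 4362 bases from the GENCODE start, whose window is not printed. *Mb* also has a start that near but is not printed, because its other 2 RefSeq starts lie 27883 and 27943 bases away. For *Ankrd2*, the last 27 bases lie within the first exon of the GENCODE gene. Each is the 250 bases before the RefSeq start on the gene's strand. Capitals mark matches, on either strand, to the E-box CANNTG, the MCAT element CATTCC, the TATA box TATAAA, the MEF2 site and the CArG box, the last 2 searched by their usual consensus with A or T in the middle. The windows are chr7:48848052-48848301, minus strand for *Csrp3*, chr19:42035777-42036026, plus strand for *Ankrd2*, chr10:88605153-88605402, minus strand for *Mybpc1* and chr8:123894776-123895025, minus strand for *Acta1*.
Csrp3: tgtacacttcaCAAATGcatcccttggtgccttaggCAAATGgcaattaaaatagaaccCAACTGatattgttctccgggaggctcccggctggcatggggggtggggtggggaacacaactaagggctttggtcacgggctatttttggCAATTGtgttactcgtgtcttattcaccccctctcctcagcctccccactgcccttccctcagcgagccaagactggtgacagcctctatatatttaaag
Ankrd2: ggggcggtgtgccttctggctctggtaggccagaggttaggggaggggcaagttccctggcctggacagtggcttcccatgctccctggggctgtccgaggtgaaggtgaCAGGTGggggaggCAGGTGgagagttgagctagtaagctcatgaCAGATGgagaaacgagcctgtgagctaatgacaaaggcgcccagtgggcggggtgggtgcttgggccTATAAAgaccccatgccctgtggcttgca
Mybpc1: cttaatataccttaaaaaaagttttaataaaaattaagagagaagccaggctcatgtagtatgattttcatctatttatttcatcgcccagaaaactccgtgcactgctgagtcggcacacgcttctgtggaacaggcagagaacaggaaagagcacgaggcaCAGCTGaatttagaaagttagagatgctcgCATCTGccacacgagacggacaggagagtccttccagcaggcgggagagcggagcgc
Acta1: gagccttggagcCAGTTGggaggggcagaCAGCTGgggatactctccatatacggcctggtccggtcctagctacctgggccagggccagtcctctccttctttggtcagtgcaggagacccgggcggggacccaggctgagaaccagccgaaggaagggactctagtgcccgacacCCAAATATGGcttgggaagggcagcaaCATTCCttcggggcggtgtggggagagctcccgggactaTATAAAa

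*Csrp3*, *Ankrd2* and *Mybpc1* hold 4, 3 and 2 E-boxes, *Ankrd2* also holds 1 TATA box, and *Acta1* holds 2 E-boxes together with 1 CArG box, 1 MCAT element and 1 TATA box. E-boxes occur in 66.2% of the 32851 promoter windows of the same length, so they are common everywhere. The MCAT element occurs in 12.6%, the TATA box in 12.4%, the CArG box in 1.47% and the MEF2 site in 0.508% of windows. Of the 29 members, 27 had an E-box, 9 an MCAT element, 8 a TATA box, 3 a CArG box and 1, *Myoz2*, a MEF2 site. These matches are descriptions of the letters and not of binding.

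The slow members were all higher on average in WD than in CD, as were 50.4% of all genes tested, but 1 of 13 passed the test. Their log2 fold changes ran from 0.20 (*Tpm3*, slow tropomyosin) to 0.99 (*Tnni1*, slow troponin I), with a median of 0.56, beside a median of 0.00 over all genes tested. Without adjustment, 7 of the 13 had a p under 0.05 in edgeR, beside 23.7% of all genes. Without WD replicate 2, 11 of the 13 were higher and their median was 0.32.

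*Tnni1* was at 10.8, 34.6, 24.7, 11.7 and 17.9 CPM in CD and 23.9, 73.4, 25.7, 21.3 and 53.4 CPM in WD. WD replicates 2 and 5 lay above all CD libraries and the other 3 within their range (log2 fold change 0.99, SE 0.356, adjusted p = 0.0962). It passed with the replicate number as a block and without CD replicate 2, with adjusted p = 0.0259 and 0.0328 in edgeR, and failed in the other 9 of the 10 fits that left out a library. Without WD replicate 2 its log2 fold change was 0.64 (adjusted p = 0.265 in edgeR). *Myl2*, the slow regulatory light chain, gave the next largest value (log2 fold change 0.93, SE 0.292, adjusted p = 0.0581). The SERCA inhibitor *Pln* was at 1.21 to 1.72 CPM in CD and 1.86 to 5.80 CPM in WD without overlap, and it did not pass (log2 fold change 0.87, SE 0.298, adjusted p = 0.0798). Non-overlap alone occurred in 5 of the 36 members and 7.84% of all genes. *Casq2*, slow calsequestrin (log2 fold change 0.61, SE 0.185, adjusted p = 0.0503), lay close to the threshold. *Myh7* (log2 fold change 0.55, SE 0.401, adjusted p = 0.436) and its slow relative *Myh7b* (log2 fold change 0.74, SE 0.251, adjusted p = 0.0789) did not pass. Other settings called some of these genes. *Casq2* passed with DESeq2 (adjusted p = 0.0129), limma-voom (0.0455), the total count (0.0360), at least 10 counts in every library (0.0496), a correction for length and GC content chosen after seeing the data (0.0467), the replicate block (0.00819) and without CD replicate 2 (0.0152). *Myl2* passed in edgeR with the total count, the block, the correction and both together, and without CD replicate 2 or WD replicate 4 (adjusted p from 0.00526 to 0.0487). *Myh7b* passed in edgeR with the block, alone or with the correction, and without CD replicate 2 or WD replicate 1 (adjusted p from 0.0307 to 0.0466), and *Pln* passed with DESeq2 (adjusted p = 0.0273). The remaining slow members were slow troponin C *Tnnc1* at 0.62, *Tnnt1* at 0.48, the slow essential light chain *Myl3* at 0.54, *Atp2a2* at 0.55 and the Z-disc protein *Myoz2* at 0.34 on the log2 scale.

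The fast members differed less and mostly in the other direction. Of 16, 14 were lower in WD, beside 49.6% of all genes, their log2 fold changes spanned -0.30 to 0.48 (median -0.14), and 1, *Myl1*, passed. Library scaling touched this count, because with the total count in place of TMM 12 were lower, while the median of all genes moved to 0.07. The fast-fibre Z-disc protein *Actn3* was at 11052, 11068, 15298, 14018 and 14007 CPM in CD and 11202, 11742, 10333, 10936 and 9781 CPM in WD. The ranges overlapped, with 3 WD libraries below all CD libraries (log2 fold change -0.28, SE 0.114, adjusted p = 0.145). *Myh4* was at 86283, 83538, 105441, 113259 and 106767 CPM in CD and 98283, 87084, 77471, 84321 and 68089 CPM in WD, so that the groups overlapped (log2 fold change -0.25, SE 0.110, adjusted p = 0.168). The 2 fast members that were higher were the IIA myosin *Myh2* (log2 fold change 0.48, SE 0.181, adjusted p = 0.107) and the IIX myosin *Myh1* (log2 fold change 0.31, SE 0.113, adjusted p = 0.102), and neither passed. Among the others, *Tnnt3* was at -0.23, *Tpm1* at -0.19, *Atp2a1* at -0.22, *Casq1* at -0.16, *Tnni2* at -0.16, *Tnnc2* at -0.13, *Mylpf* at -0.10, *Mybpc2* at -0.13, *Pvalb* at -0.012, *Myoz1* at -0.12 and *Myoz3* at -0.043 (log2). Of these, *Pvalb* and *Myoz3* turned above 0 with the total count. Other settings called fast members besides *Myl1* in WD vs. CD. *Tnnt3* passed with DESeq2 (adjusted p = 0.0385), with the length and GC correction in edgeR (0.0175, and 0.0259 with the block) and without WD replicate 5 (0.0394). *Tpm1* passed with DESeq2 (adjusted p = 0.0491) and in edgeR without WD replicate 4 (0.0443), and *Tnnc2* and *Tnni2* with the correction in edgeR (adjusted p = 0.0352 and 0.0450). *Myh1* passed in edgeR with the total count (adjusted p = 0.0488) and without WD replicate 5 (0.0267), *Mylpf* without WD replicate 5 and *Myh2* without CD replicate 2 (adjusted p = 0.0216). Of the genes of neither side, tropomyosin *Tpm2* was at -0.12 and alpha-actinin *Actn2* at 0.30, and neither passed. Without CD replicate 2, *Actn2* passed in edgeR (log2 fold change 0.45, adjusted p = 0.0275).

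*Sln* had few counts and was set by single libraries. It was at 0.503, 0.586, 0.273, 0.244 and 0.346 CPM in CD, 0.305, 2.27, 0.256, 0.388 and 1.03 CPM in WD and 0.253, 5.40, 0.439, 0.255 and 0.439 CPM in WD + CHP. WD + CHP replicate 2 stood far above the rest of its group, and WD replicates 2 and 5 were the highest of theirs (log2 fold change 1.11, SE 0.881, adjusted p = 0.479 in WD vs. CD).

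**Figure D3:**
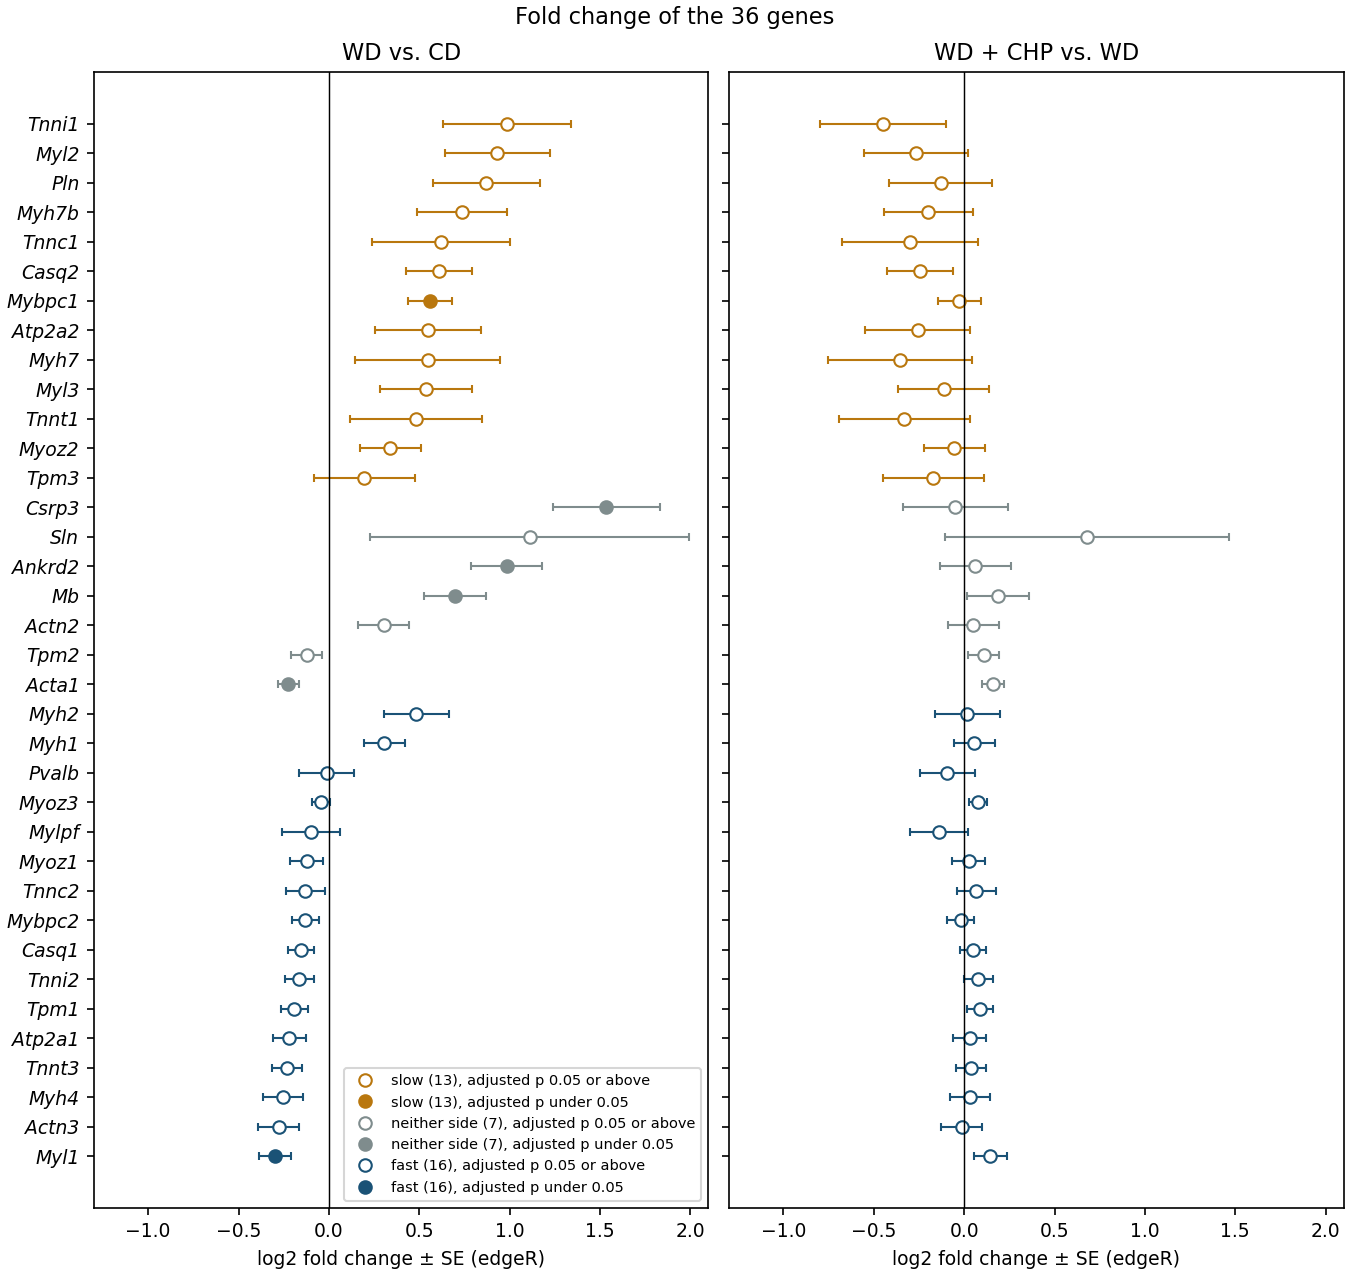
Log2 fold change of each of the 36 genes with its SE from edgeR, in WD vs. CD and in WD + CHP vs. WD, by side. Filled points have an adjusted p under 0.05. In WD vs. CD all 13 slow genes lie right of 0 and 14 of 16 fast genes lie left of it, and no point is filled in WD + CHP vs. WD.

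The ratio of a slow gene to its fast counterpart was formed within each library, where scaling cancels apart from the prior count. All 11 slow-to-fast ratios were higher on average in WD than in CD, by 0.35 to 1.12 on the log2 scale with a median of 0.74. All 11 remained above 0 when any library was left out. Without WD replicate 2 their range was 0.098 to 0.85, with the median at 0.51, and the lowest of them, *Tpm3/Tpm1*, moved from 0.35 to 0.098. No ratio passed after adjustment over the 28 ratio tests by exact two-sided permutation over 252 splits, whose smallest p is 0.00794. With no p below 0.00794 and 28 tests, no ratio could pass on its own, only several together. Unadjusted, 5 of the 14 ratios had a p under 0.05. After adjustment none passed when any library was left out, where fewer splits put the smallest p higher still. The smallest adjusted p by exact permutation in those WD vs. CD fits was 0.0556, so they could hardly have given a pass.

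For *Mybpc1/Mybpc2* the log2 ratio was -2.78, -2.36, -3.04, -3.17 and -3.11 in CD and -2.26, -2.14, -1.80, -2.45 and -2.42 in WD, a difference of 0.68 (exact permutation p = 0.0238, adjusted p = 0.167). CD replicate 2 lay within the WD range and the other 4 below it. For *Myl2/Mylpf* it was -6.80, -5.35, -6.06, -6.73 and -6.27 in CD and -5.50, -4.23, -4.90, -5.90 and -5.28 in WD, a difference of 1.08 (exact permutation p = 0.0238, adjusted p = 0.167). WD replicate 2 was the highest and 3 of the 5 WD libraries exceeded all CD libraries. The calsequestrin ratio *Casq2/Casq1* gave a difference of 0.77 (exact permutation p = 0.0238, adjusted p = 0.167), and the essential light chain ratio *Myl3/Myl1* a difference of 0.79 (exact permutation p = 0.0476, adjusted p = 0.250).

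Of the other slow-to-fast pairs, *Tnni1/Tnni2* gave a difference of 1.12 (exact permutation p = 0.0714, adjusted p = 0.250) and *Myh7/Myh4* a difference of 0.74 (exact permutation p = 0.214, adjusted p = 0.492), with SDs of 0.887 in WD and 0.856 in CD for the latter. Without WD replicate 2 the difference of *Myh7/Myh4* was 0.40. *Tpm3/Tpm1* gave the lowest value, a difference of 0.35 (exact permutation p = 0.413, adjusted p = 0.722). Within the fast side, *Myh1/Myh4* was -4.37, -4.21, -4.78, -4.86 and -4.77 in CD and -4.04, -4.03, -3.76, -4.30 and -4.14 in WD, a difference of 0.54 (exact permutation p = 0.0159, adjusted p = 0.167). Of the WD libraries 4 lay above all CD libraries. *Myh2/Myh4* gave a difference of 0.73 (exact permutation p = 0.0556, adjusted p = 0.250) and *Actn2/Actn3*, the general to the fast alpha-actinin, a difference of 0.57 (exact permutation p = 0.0635, adjusted p = 0.250).

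**Figure D4:**
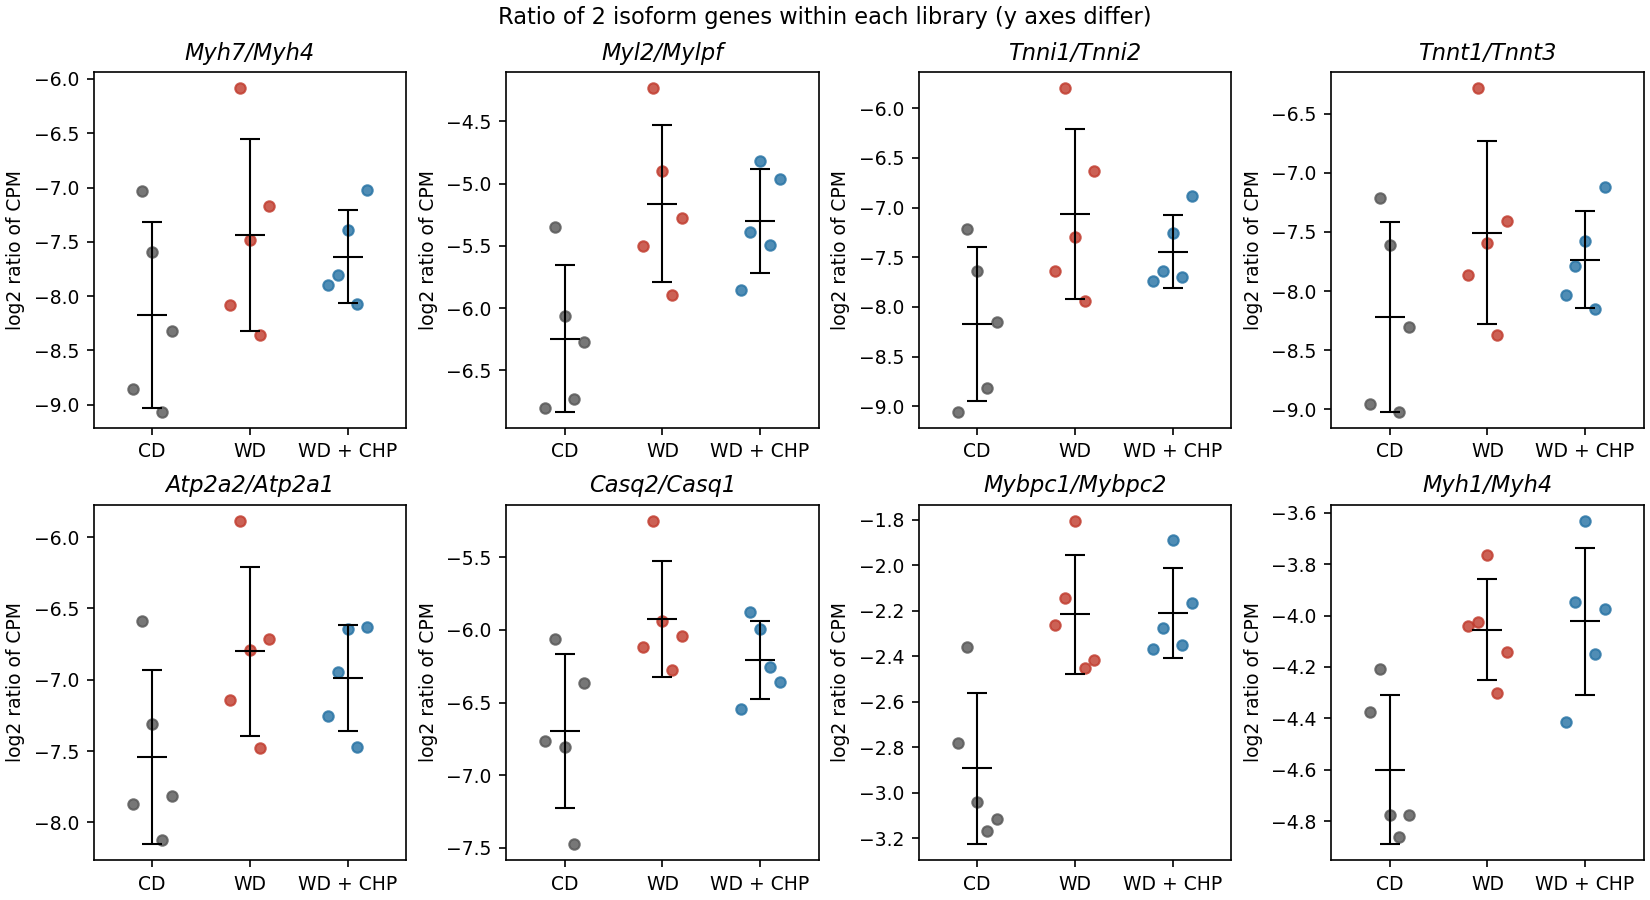
Log2 ratio of the CPM of a slow gene to its fast counterpart, or of *Myh1* to *Myh4*, in each library, for 8 of the 14 pairs. Points are libraries, black marks are the mean and SD (n = 5), and y axes differ. The WD means lie above the CD means in all 8 panels, and the points of the groups overlap in each.

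The slow members varied more between libraries of a group than the fast members. The pooled within-group SD of log2 CPM had a median of 0.50 over the 13 slow members, 0.15 over the 16 fast members and 0.15 over all genes tested. WD replicate 2 had the highest level of 11 of the 13 slow members, and CD replicate 4 the lowest of 9. *Mybpc1*, the slow member that passed in WD vs. CD, differed from this. It had the lowest pooled SD of the slow side, 0.21, and was highest in WD replicate 3 and lowest in CD replicate 5. The slow members' median deviation from their mean over the 15 libraries was 1.05 in WD replicate 2 and -0.84 in CD replicate 4 (log2). CD replicate 2, at 0.40, was above the other CD libraries, which lay between -0.84 and -0.31. For the fast members, the same median ran from -0.23 in WD replicate 3 to 0.14 in CD replicate 4. Without CD replicate 2, 13 members passed in WD vs. CD, beside 9.14% of all genes in that fit. Of the 13, 11 rose, and the slow ones were *Tnni1*, *Myh7b*, *Casq2*, *Myoz2*, *Myl2* and *Mybpc1*.

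WD replicate 5 was the highest for *Pvalb* (parvalbumin, the calcium buffer of fast fibres), *Mylpf* and *Tnnc2*, at 6369, 5372 and 7790.3 CPM, and the lowest for *Myh4*. Across 9370 genes, which are not independent replicates, its deviation correlated with exon length at r = -0.41, the most extreme of the 15 libraries. Without this library 9 members passed in WD vs. CD, beside 7.93% of all genes in that fit, and *Mylpf*, *Tnnt3* and *Myh1* were the 3 gained. *Mylpf* was then at -0.34 (adjusted p = 0.0344 in edgeR), vs. -0.10 with all libraries. With a correction for length and GC content, added after the data were seen, *Acta1* had a log2 fold change of -0.25 and did not pass (SE 0.0792, adjusted p = 0.0534 in edgeR), and the other 5 called members passed.

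**Figure D5:**
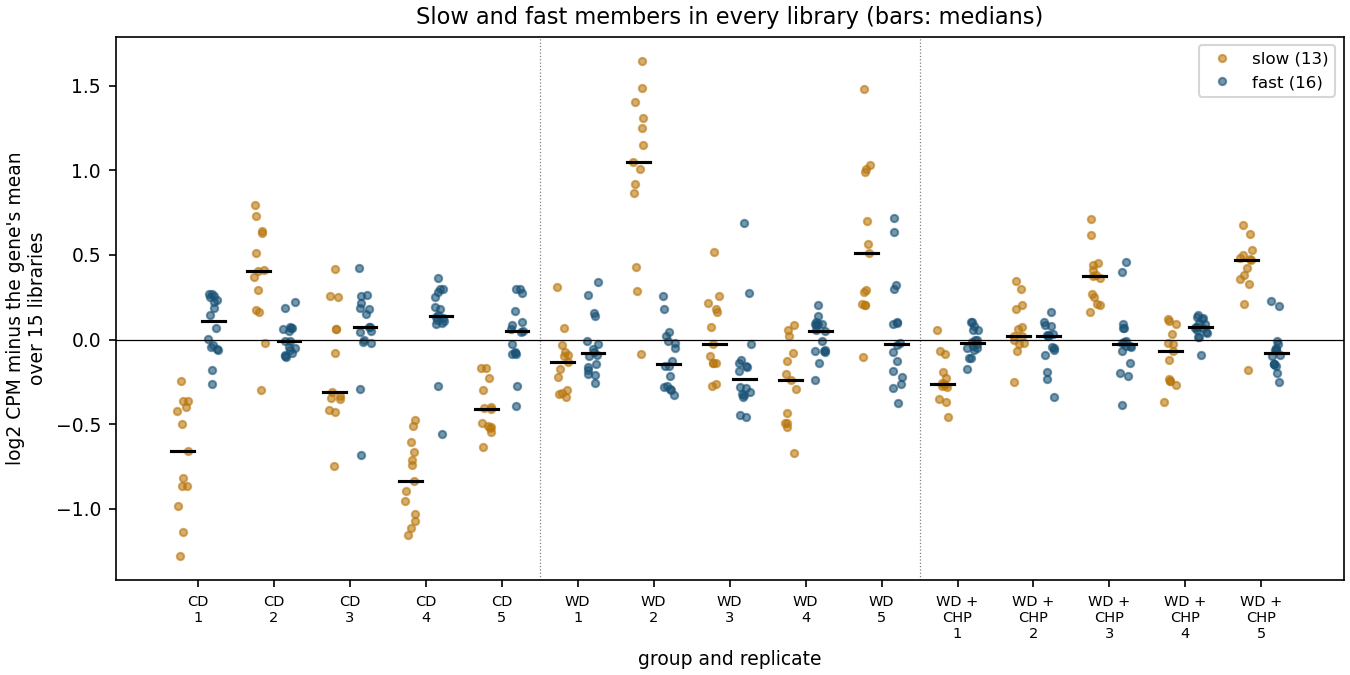
Log2 CPM of the slow and fast members in each library, minus each gene's mean over the 15 libraries. Points are genes and black bars are medians. The slow genes spread from library to library within a group, with medians from -0.84 to 0.40 in CD, whereas the medians of the fast genes lie between -0.23 and 0.14 over all libraries.

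Markers of other cell types were measured in the same libraries. The 10 adipocyte markers were *Adipoq*, *Plin1*, *Plin4*, *Cidec*, *Lep*, *Fabp4*, *Retn*, *Cfd*, *Car3* and *Cidea*. Their summed level was 1388 to 1942 CPM in CD and 1388 to 2049 CPM in WD, with 5 higher and 1 lower in WD by the test. Of all genes tested, 4.67% passed with a higher level in WD and 3.96% with a lower one, also beside the marker counts that follow. The 3 muscle spindle markers *Myh6*, *Myh3* and *Egr3* summed to 5.65 to 11.1 CPM in CD and 9.02 to 31.9 CPM in WD, and 1 of them was higher in WD by the test. The 6 tendon, 6 endothelial and 6 Schwann cell markers had no member past the threshold. No defining marker was at 0, and 2 of the 6 leukocyte markers, *Cd79a* and *Cd3e*, did not pass the filter. The 6 smooth muscle markers, which include *Des* of muscle fibres, summed to 3350 to 3727 CPM in CD and 3366 to 3641 CPM in WD, with 2 higher in WD, and of the 4 satellite cell markers 1 was higher. The part of these markers in the results above was not tested.

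In WD + CHP vs. WD none of the 36 members passed, beside 0.409% of all genes tested in edgeR. Unadjusted, 1 of the 36 had a p under 0.05, beside 12.5% of all genes, and DESeq2 called 1, *Acta1*, beside 1.62% of all genes in that fit. All 13 slow members were lower on average, beside 54.1% of all genes, with a median log2 fold change of -0.25 beside -0.01 over all genes, and 12 of 16 fast members were higher, beside 45.9%, with a median of 0.03. Without WD replicate 2, 8 of the 13 slow members were higher. The count of fast members lies close to the centre of all genes, since with the total count in place of TMM the median of all genes moved to -0.06, that of the fast members to -0.01, and 7 of the 16 were higher.

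Among the markers of other cells, 4 of 10 adipocyte markers were lower in WD + CHP than in WD by the test. Of all genes, 0.409% passed in either direction. The summed tendon markers were 203 to 295 CPM vs. 243 to 698 CPM. Smooth muscle markers summed to 3741 to 4046 CPM in WD + CHP, above every WD library. Most of this sum was *Des* of muscle fibres, with a mean of 3625 CPM in WD + CHP vs. 3262 CPM in WD. *Des* did not pass (log2 fold change 0.15, adjusted p = 0.192 in edgeR). The higher sum thus mainly followed *Des*, and a sum without *Des* was not formed. The part of the markers of other cells in the values of WD + CHP vs. WD was not tested.

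*Acta1* came nearest to the threshold. It was at 40549, 36961, 39217, 41577 and 37275 CPM in WD + CHP, and all 5 libraries lay above the WD libraries (log2 fold change 0.16, SE 0.0601, adjusted p = 0.278). It was the single member whose groups did not overlap, beside 2.83% of all genes. The highest log2 fold changes among the members were those of *Sln* (log2 fold change 0.68, SE 0.785, adjusted p = 0.778) and *Mb* (log2 fold change 0.19, SE 0.170, adjusted p = 0.703), neither of which passed, and for *Sln* the value turned to -1.28 without WD + CHP replicate 2.

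The lowest were those of *Tnni1*, at 22.4, 26.5, 34.0, 24.1 and 37.8 CPM in WD + CHP (log2 fold change -0.45, SE 0.351, adjusted p = 0.644), *Myh7* (log2 fold change -0.36, SE 0.400, adjusted p = 0.771) and *Tnnt1*, slow troponin T (log2 fold change -0.33, SE 0.364, adjusted p = 0.766). None passed, and without WD replicate 2 *Tnni1* was at -0.10, *Myh7* at 0.20 and *Tnnt1* at 0.091 on the log2 scale. That library had 1280.3 CPM of *Myh7*, whereas the other WD libraries had 257 to 472 CPM and the WD + CHP libraries 341 to 656 CPM. It had 199 CPM of *Tnnt1*, vs. 53.3 to 107 CPM in the other WD libraries and 62.4 to 106 CPM in WD + CHP. Of the 11 slow-to-fast ratios, 10 were lower in WD + CHP than in WD, by up to 0.38 on the log2 scale, and the smallest adjusted p by exact permutation was 0.492. Without WD replicate 2, 9 of the 11 were higher. The genes that rose in WD vs. CD did not differ by the test in WD + CHP vs. WD, with *Csrp3* at 83.4 ± 28.9 vs. 86.3 ± 25.0 CPM and *Ankrd2* at 138 ± 35.5 vs. 133 ± 24.2 CPM (SD, n = 5). Neither difference passed (*Csrp3* log2 fold change -0.049, SE 0.288, adjusted p = 0.969, *Ankrd2* log2 fold change 0.062, SE 0.197, adjusted p = 0.930).

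WD + CHP vs. CD was added after the data were seen and shares its libraries with the other 2 comparisons. Here 4 of the 36 members passed, beside 9.4% of all genes in edgeR, and all 4 rose, beside 4.85% of all genes. They were *Csrp3* (log2 fold change 1.49, SE 0.297, adjusted p = 0.00550), *Ankrd2* (log2 fold change 1.04, SE 0.199, adjusted p = 0.00419), *Mb* (log2 fold change 0.89, SE 0.171, adjusted p = 0.00452) and *Mybpc1* (log2 fold change 0.53, SE 0.12, adjusted p = 0.0110). *Acta1* was at -0.065 and *Myl1* at -0.15 on the log2 scale, and neither passed. Without CD replicate 2, 9 members passed, beside 10.4% of all genes in that fit. *Myh1*, at 0.36, passed with DESeq2 (adjusted p = 0.0156) and with only the 2 groups compared in edgeR (0.0185), among other settings.

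Of 48 other sarcomere and calcium-release genes, 10 passed in WD vs. CD, 5 higher and 5 lower, which is 20.8% of the list beside 8.63% of all genes, and 6 passed without CD replicate 4, beside 6.39% of all genes in that fit. They included *Lmod2*, leiomodin 2, which elongates thin filaments (205 ± 28.6 vs. 98.6 ± 8.96 CPM, log2 fold change 1.06, adjusted p = 0.000243), and *Fhl1*, a LIM protein of muscle (1076 ± 206 vs. 579 ± 117 CPM, log2 fold change 0.89, adjusted p = 0.00145). *Xirp1*, an actin-binding repair protein, was also higher (338 ± 36 vs. 155 ± 43.3 CPM, log2 fold change 1.13, adjusted p = 0.00189), and *Fhl3* was lower (137 ± 12.0 vs. 171 ± 8.87 CPM, log2 fold change -0.32, adjusted p = 0.00444). Cardiac alpha-actin *Actc1*, a close paralog of *Acta1* and named here after its values were seen, fell as well (104 ± 20.2 vs. 268 ± 149 CPM, log2 fold change -1.36, adjusted p = 0.00649). In WD + CHP vs. WD none of the 48 passed in edgeR, with 5 at an unadjusted p under 0.05, beside 12.5% of all genes, and DESeq2 called 1, beside 1.62%.

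Of 42 genes that control fibre type, 6 passed in WD vs. CD, 4 higher and 2 lower, which is 14.3% of the list beside 8.63% of all genes. When WD replicate 1, 2 or 3 was left out 3 passed, beside 6.31% to 6.63% of all genes in those fits. The calcineurin target *Rcan1* (114 ± 17.1 vs. 75.5 ± 11.8 CPM, log2 fold change 0.60, adjusted p = 0.00569), the oestrogen-related receptor *Esrrg*, a regulator of oxidative metabolism (34.4 ± 7.88 vs. 21.4 ± 5.32 CPM, log2 fold change 0.68, adjusted p = 0.0128), and the Tead cofactor *Vgll2* (69.4 ± 12.1 vs. 43.5 ± 10.7 CPM, log2 fold change 0.67, adjusted p = 0.0289) rose. The calmodulin kinase *Camk2a* (470.2 ± 30.7 vs. 584 ± 34.6 CPM, log2 fold change -0.31, adjusted p = 0.00187) fell. In WD + CHP vs. WD none of the 42 passed in edgeR, with 9 at an unadjusted p under 0.05, beside 12.5% of all genes, and DESeq2 called 1, beside 1.62%.

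Kidney, which has no skeletal muscle fibres, held 13 of the 36 members past the filter. In WD vs. CD 1 of the 13, *Pvalb*, passed (adjusted p = 0.000643 in edgeR), beside 9.65% of kidney genes, and in WD + CHP vs. WD none of the 13 passed, beside 0.105%, with 2 at an unadjusted p under 0.05, beside 11.4% of kidney genes. *Csrp3*, *Ankrd2*, *Mb*, *Mybpc1*, *Acta1* and *Myl1* were not among the 13. The slow members *Tpm3* and *Atp2a2* had medians of 109 and 439 CPM in kidney, above their 81.9 and 351 CPM in gastrocnemius. They are thus not limited to slow fibres, and which cells of the muscle gave their reads was not tested.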

How the data were processed

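RNA-seq was measured in gastrocnemius and kidney of CD, WD and WD + CHP mice, with 5 libraries per group and tissue. The authors cleaned reads with SOAPnuke, aligned them with STAR 2.7.3a to GRCm38/mm10 (submitters' processing notes) and deposited unnormalised counts of reads for each gene. The sources differ on the extraction kit.

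Analyses used R 4.3.3 and edgeR 4.0.16. The filterByExpr function (minimum count 10) kept 15419 genes with 99.95% of the counts. After TMM scaling, 1 quasi-likelihood model covered all 3 groups, and p-values were adjusted by Benjamini-Hochberg with a threshold of 0.05. Log2 CPM used a prior count of 2. Ratios were tested by exact two-sided permutation (scipy 1.17.1), adjusted over 28 tests. Scripts were tested on simulated data. There, 7.33% of the calls of edgeR were false at the threshold of 0.05, with 8.05% for limma-voom and 9.87% for DESeq2. In edgeR 24% of the 1.25-fold changes and 92% of the 2-fold changes were called. Full values are given for members past the threshold and for the 3 highest and lowest changes in WD vs. CD and in WD + CHP vs. WD, and from the other lists for up to 4 genes per comparison, with *Actc1* added after its values were seen. For WD + CHP vs. CD only called members are given in full. The members and lists were chosen with earlier results of these data known. P-values measure the spread between these libraries, part of which may be technical. Gene coordinates are from GENCODE M21.

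Alternatives were DESeq2 1.42.0, limma-voom (limma 3.58.1), other scalings and filters, an adjusted p under 0.1, the 2 groups alone, the replicate number as a block and each library left out. A correction for length and GC content was added after the data were seen.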

Additional observations from a re-analysis of the deposited data

Results flagged for a closer look

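In 150 groups of 5 values (36 genes by CPM and 14 ratios by log2, each in 3 groups), 13 single libraries lay far from the other 4 of their group, with a gap to the nearest library above 0.71 of the group's range. Chance flags about 1 in 20 such groups, and the genes share libraries.

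CD replicate 2 stood above its group for *Myl3* at 142 CPM, *Actn2* at 1118 CPM, *Mybpc1* at 1553 CPM, *Myoz2* at 82.1 CPM, *Ankrd2* at 105 CPM and *Csrp3* at 56.2 CPM, and for the *Myoz2/Myoz1* log2 ratio at -4.47. WD replicate 2 stood above its group for *Myh7* at 1280.3 CPM, *Atp2a2* at 855 CPM and *Casq2* at 58.8 CPM. WD replicate 5 stood above its group for *Pln* at 5.80 CPM, and WD + CHP replicate 2 for *Sln* at 5.40 CPM. WD + CHP replicate 5 stood below its group for *Myl1* at 5232 CPM. What sets these libraries apart was not tested.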

How the results depend on the processing

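The rises of *Csrp3*, *Ankrd2*, *Mb* and *Mybpc1* in WD vs. CD kept their direction and call in all 20 alternatives run for each. Same-numbered libraries did not deviate together (r from -0.13 to 0.15), and the main model did not pair libraries by number. With the replicate block, 9 members passed in WD vs. CD, beside 7.44% of all genes in that fit. The count of members in WD vs. CD, 6, became 10 with DESeq2 (11.4% of all genes), 12 at an adjusted p under 0.1 (14.2%), 10 with the length and GC correction that was chosen after seeing the data (10.1%), 10 with that correction and the block (8.89%), and 4 to 13 when a library was left out (13 without CD replicate 2), beside 8.63% of all genes in the model as reported and 6.21% to 9.14% with a library left out. For the other sarcomere genes, 10 became 6 to 12 when a library was left out (6 without CD replicate 4). For the regulators, 6 became 10 at an adjusted p under 0.1 and 3 to 8 when a library was left out (3 without WD replicate 1, 2 or 3).

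In WD + CHP vs. WD each count of 0 became 1 with DESeq2, where calls over all genes went from 0.409% to 1.62%. In WD + CHP vs. CD the 4 members became 7 with only the 2 groups compared (10.5% of all genes), 7 with the length and GC correction (9.98%), 7 with that correction and the block (8.81%), and 4 to 9 when a library was left out (9 without CD replicate 2). The 8 of 48 other sarcomere genes (16.7%) became 5 to 9 (5 without CD replicate 5 or WD + CHP replicate 2 or 3), and the 8 of 42 regulators (19.0%) 4 to 11 (4 without WD + CHP replicate 3), beside 9.4% of all genes and 5.62% to 10.4% with a library left out. No ratio passed in any alternative, although the smallest possible p left little room for a pass after adjustment. In WD + CHP vs. WD, leaving out a library turned the sign of *Myh7* (-0.55 to 0.20), *Tnnt1* (-0.49 to 0.091) and *Sln* (-1.28 to 1.46), and of 12 of the 14 log2 ratios. These were *Myh7/Myh4* (-0.43 to 0.14), *Myl3/Myl1* (-0.31 to 0.028), *Myl2/Mylpf* (-0.33 to 0.090), *Tnnt1/Tnnt3* (-0.44 to 0.076), *Tnnc1/Tnnc2* (-0.47 to 0.088), *Tpm3/Tpm1* (-0.37 to 0.077), *Atp2a2/Atp2a1* (-0.36 to 0.041), *Myoz2/Myoz1* (-0.22 to 0.015), *Mybpc1/Mybpc2* (-0.074 to 0.11), *Actn2/Actn3* (-0.020 to 0.20), *Myh2/Myh4* (-0.089 to 0.17) and *Myh1/Myh4* (-0.067 to 0.13). With group medians, *Myl3/Myl1* turned to 0.089 and *Mybpc1/Mybpc2* to -0.0112. The cause of these changes was not tested. Genes with few counts, such as *Sln* and *Pln*, and slow members with a wide spread limit what 5 libraries per group can show.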
